A study of Mus musculus with 4 samples.

Results

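The WNT signaling ligands and readouts described here were 10 genes chosen by name, of 13577 genes listed in the table of expression values. They comprise 3 WNT ligands (*Wnt5a*, *Wnt11* and *Wnt9b*), the R-spondin *Rspo3*, 3 secreted inhibitors (*Sfrp1*, *Sfrp2* and *Dkk1*) and 3 canonical target genes (*Axin2*, *Lef1* and *Sp5*). Of the 10 genes, 9 have a line in the table, and all 9 passed the filter on low values. *Wnt11* has no line in the table used here and was not analysed.

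RNA-Seq data came from bulk nasal process (NP) tissues, the outgrowths around the nasal pits that form the midface, from E11.5 mouse embryos. The comparison asks how gene expression in NP tissues differs when the type I BMP receptor ACVR1 is constitutively active in neural crest cells, and it rests on 4 libraries. By title, 2 are controls and 2 are ca-*Acvr1(A11)* mutants, and they are called controls and mutants below. Mutants carry a transgene (line A11) whose ubiquitous CAG promoter drives constitutively active *Acvr1* after Cre recombination, together with *P0-Cre*, which recombines in neural crest cells. Controls carry *P0-Cre* without the transgene, so that both groups express Cre. The strain background of the mice was mixed. NP tissue holds epithelium, neural cells and blood besides the mesenchyme that derives from neural crest, and markers of each were detected. Nothing in the sources used here says whether each library is a separate embryo or a pool, and p-values then measure only the spread between these samples, which may be technical. The group size that the paper's legend gives for its RNA-Seq is larger than the number of libraries per group analyzed here.

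The labels contradict each other on the groups. Under genotype, the control-titled libraries are listed with the transgene and the mutant-titled ones with *P0-Cre* only. Titles were used throughout, and if the genotype entries hold instead, each direction below turns around. *Acvr1* itself was at 21.5 and 23.1 CPM (a gene's reads relative to the total of its library) in controls, against 24.1 and 12.6 CPM in mutants. The groups overlap, and limma's adjusted p was 0.786, so that this gene cannot tell which entry is right. By in situ hybridization the paper reports raised *Acvr1* transcript in mutant NP tissues, a rise that these overlapping groups do not show by either entry. Reads lie at the 3′ end of a transcript, and whether the transgene shares that end with *Acvr1* is not given in the sources used here. The paper reports less *Pdgfra* transcript and protein in mutants than in controls. By title, *Pdgfra* was at 85.3 and 114 CPM in controls against 13.2 and 17.9 CPM in mutants. Its log2 fold change was −2.60 (limma adjusted p = 6.8e-09), which is the direction of the paper if the titles hold. Which entry is right was not tested further. Control replicate 1 had 1956831 reads and replicate 2 had 2252586, while mutant replicate 1 had 2408827 reads and replicate 2 had 2137027. At these depths 1 read equals 0.511, 0.444, 0.415 and 0.468 CPM.

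WNT ligands bind Frizzled receptors with LRP co-receptors, which stops the destruction complex from degrading β-catenin, and β-catenin then acts with TCF/LEF factors on target genes. R-spondins bind LGR receptors and keep the ubiquitin ligases RNF43 and ZNRF3 from removing Frizzled receptors, while SFRP proteins bind WNT ligands and DKK proteins block LRP co-receptors. In the face, canonical WNT signaling takes part in outgrowth and fusion of the facial processes, and *Wnt5a* acts largely without β-catenin.

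Promoters of the readouts are shown because TCF/LEF factors act through short DNA motifs. The RefSeq promoter table (GRCm38.p6) matched 7 of the 10 genes, with 11 promoters. It has no entry for *Wnt5a*, *Sfrp1* and *Rspo3*. The 250 bases before each start were searched on both strands for the TCF/LEF letters CTTTGAT or CTTTGAA. These letters occur in 2457 of 32851 promoters of the table (7.48%) and in 3 of the 11 promoters here, those of *Sp5* and *Dkk1* and 1 of 2 of *Wnt11*. The *Sp5* promoter (chr2:70474673-70474922, plus strand) and the *Axin2* promoter (chr11:108920099-108920348, plus strand) are given below 5′ to 3′, with TCF/LEF letters in capitals. With them is the promoter of *Dkk2* (chr3:132085042-132085291, plus strand), an inhibitor gene whose expression is described further on. All lie directly upstream of their gene and hold no annotated exon.
Sp5: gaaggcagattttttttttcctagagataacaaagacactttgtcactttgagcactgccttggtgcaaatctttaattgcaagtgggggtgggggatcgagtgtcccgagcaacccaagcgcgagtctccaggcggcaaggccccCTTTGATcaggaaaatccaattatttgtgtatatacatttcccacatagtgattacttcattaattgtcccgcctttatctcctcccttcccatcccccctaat
Axin2: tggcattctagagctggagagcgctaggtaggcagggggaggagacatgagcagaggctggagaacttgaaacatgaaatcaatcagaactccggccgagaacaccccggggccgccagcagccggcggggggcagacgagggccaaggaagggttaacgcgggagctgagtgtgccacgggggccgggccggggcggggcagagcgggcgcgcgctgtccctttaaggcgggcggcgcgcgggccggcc
Dkk2: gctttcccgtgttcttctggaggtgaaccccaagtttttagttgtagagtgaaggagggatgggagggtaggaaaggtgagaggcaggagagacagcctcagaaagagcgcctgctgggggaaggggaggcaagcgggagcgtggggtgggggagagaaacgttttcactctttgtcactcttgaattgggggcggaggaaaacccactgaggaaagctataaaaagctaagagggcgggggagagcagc
The *Sp5* promoter holds CTTTGAT once, starting 104 bases before the start of transcription. Neither the *Axin2* nor the *Dkk2* window holds the letters, which says only that they are absent from these windows. The *Dkk1* match lies in an annotated exon and is not printed. GGCGCC, letters bound by SMAD1/5, occurs in 3 of the 11 promoters (2 of 4 of *Lef1* and 1 of 2 of *Wnt11*) and in 9.59% of all promoters in the table. Both *Lef1* windows overlap, share a single site and hold an exon of another gene, *Gm43352*. Of 3 promoters of *Sp8*, a target gene described further on, 1 holds both CTTTGAA on the opposite strand and GGCGCC, and it lies inside the annotated gene. A match is a description of the sequence and not a measured binding site.

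In the wider WNT pathway *Rspo2* and *Dkk2* fell in ca-*Acvr1(A11)* NP tissues and were called under every alternative processing. *Sp8* rose by limma, a call not kept by DESeq2 or on omission of some libraries. These genes are described one by one below. None of the 9 chosen genes passed the threshold between control and ca-*Acvr1(A11)* libraries in limma's test across 12462 genes (Benjamini-Hochberg adjusted p under 0.05). At an unadjusted p under 0.05 there were 2 of 9, *Wnt5a* and *Rspo3*. edgeR, DESeq2 and limma-voom on recovered reads each called 0 of 9. Across all genes tested, 38 were called higher (0.305%) and 74 lower (0.594%) in ca-*Acvr1(A11)* libraries. An unadjusted p under 0.05 was found for 9.55%, with 676 genes higher and 514 lower. DESeq2 called 8 higher and 31 lower, and how the called genes changed on omission of each library is given at the end. Both libraries of a group lay outside the range of the other for 3 of the 9 genes, all lower in ca-*Acvr1(A11)* libraries (*Wnt5a*, *Sfrp2* and *Rspo3*), and for 0 of 9 in the higher direction. Among all genes tested, 16.8% were separated in the lower and 21.9% in the higher direction. The median log2 fold change was −0.22 over the 9 genes and 0.03 over all genes tested. With 2 libraries against 2, an exact two-sided permutation test of a single gene cannot go below p = 0.333. Markers of mesenchyme were lower in mutants, with summed levels of 1921 and 2383 CPM in controls against 1034 and 1075 CPM in mutants. In bulk tissue, fewer cells of a type and less RNA per cell cannot be told apart.

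Reads come from the 3′ end of each transcript whatever its length, so that CPM values of different genes can be set side by side without division by length. In GENCODE M21 (GRCm38) the last exon of each of the 9 genes overlaps no other gene, except that of *Sfrp2*. By mean CPM in control libraries, *Sfrp1* was the most abundant (334 ± 89.6, SD, n = 2), followed by *Wnt5a* (131 ± 11.9) and *Sfrp2* (91.9 ± 8.12). *Axin2* (36.7 ± 6.43) and *Lef1* (36.3 ± 11.52) came next and overlapped each other. *Rspo3* followed at 17.5 ± 6.66. *Dkk1* (7.44 ± 3.29), *Wnt9b* (5.66 ± 0.78) and *Sp5* (4.39 ± 2.59) were lowest, and their control ranges overlapped. *Sfrp1*, *Wnt5a*, *Sfrp2* and *Rspo3* did not overlap their neighbours in this order.

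**Figure D1:**
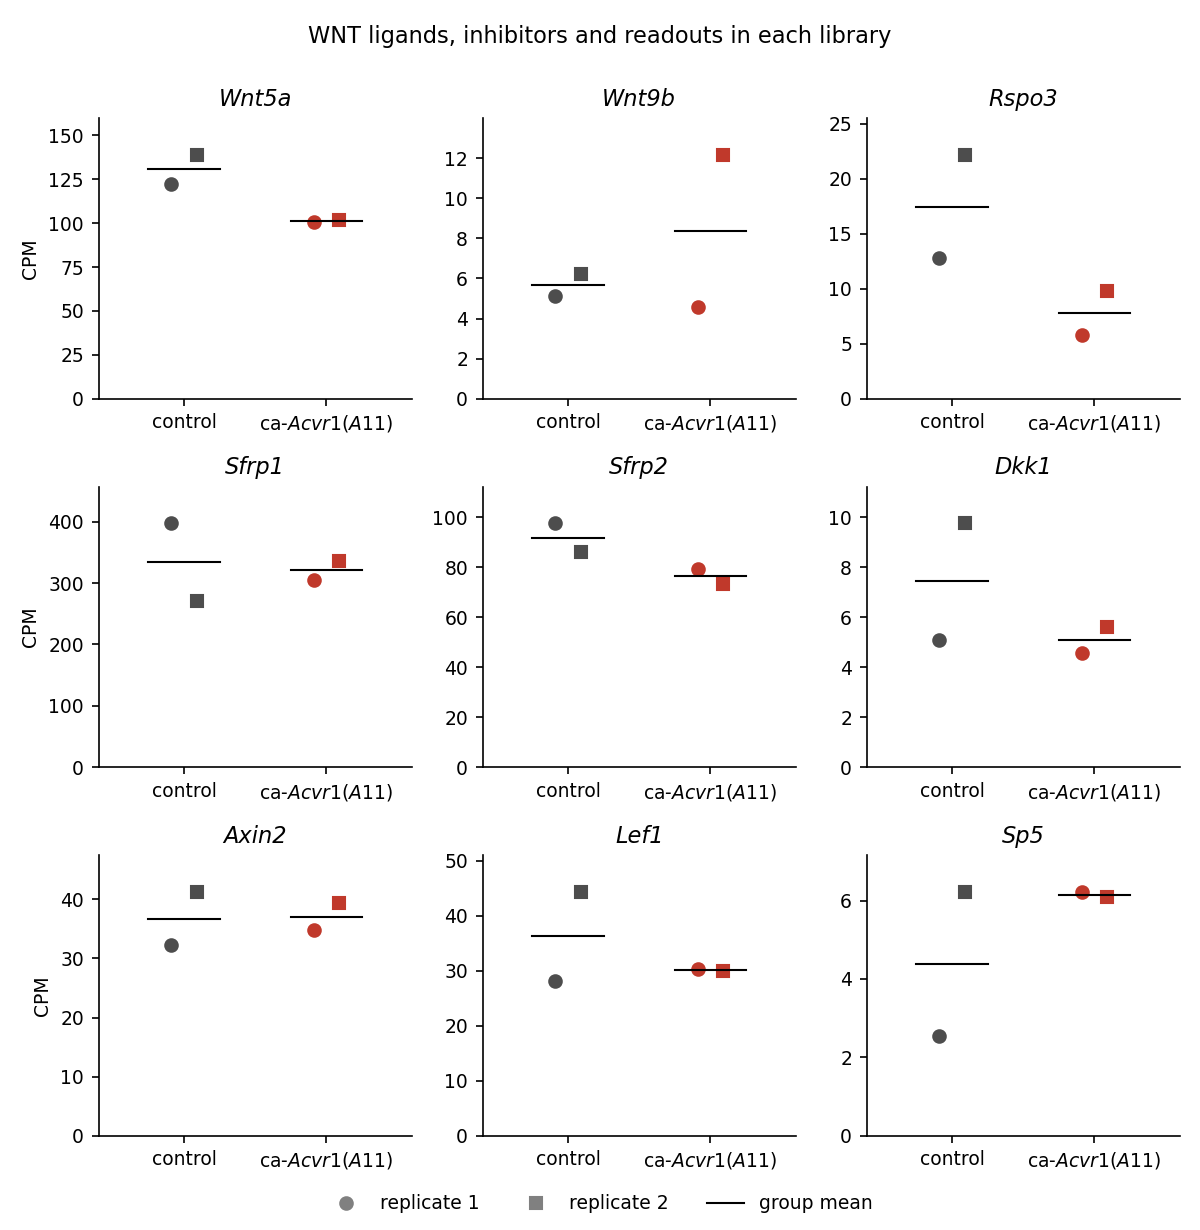
Expression of the 9 listed WNT genes in CPM (vertical axes, from 0) in the 2 control and 2 ca-*Acvr1(A11)* libraries, with circles for replicate 1, squares for replicate 2 and lines for group means. The groups are separated for *Wnt5a*, *Sfrp2* and *Rspo3* and overlap for the other 6 genes.

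*Wnt5a* (Entrez 22418, chr14:28504750-28527448 in GRCm38) encodes a ligand that signals largely through ROR receptors. It was at 122 and 139 CPM in controls against 100 and 102 CPM in mutants, from 217 to 313 reads a library. Both ca-*Acvr1(A11)* libraries lay below both controls, and the gap between the groups was slightly wider than the difference between the controls. On the log2(CPM + 1) scale the fold change was −0.36 (standard error 0.15, 95% interval −0.68 to −0.05), and limma's adjusted p was 0.424. *Wnt5a* held most reads of the 10 listed WNT ligand genes in every library. Its share was 60.8% (exact 95% interval 55.8 to 65.7) and 66.7% (62.3 to 71.0) in control libraries, and 55.8% (50.9 to 60.5) and 52.3% (47.4 to 57.2) in ca-*Acvr1(A11)* libraries. These intervals cover counting error only, and that of control replicate 1 overlaps both ca-*Acvr1(A11)* intervals.

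*Wnt9b* (Entrez 22412, chr11:103727364-103749821), a ligand of facial ectoderm that acts through β-catenin, was at 5.11 and 6.22 CPM in controls against 4.57 and 12.2 CPM in mutants. The ca-*Acvr1(A11)* libraries lay on either side of the controls, with 11 and 26 reads, and *Wnt9b* had the largest ratio between the ca-*Acvr1(A11)* replicates of the 9 genes (2.66-fold). Its log2 fold change of 0.37 (standard error 0.40, limma adjusted p = 0.853) became −0.25 without mutant replicate 2. The interval of −0.45 to 1.18 leaves either sign open.

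Of 21 genes for WNT ligands and their secretion, 12 are listed, 11 were tested and 0 were called by limma, with 3 at an unadjusted p under 0.05 and 0 called by edgeR, DESeq2 or limma-voom. The median log2 fold change of the tested genes was 0.11. The smallest unadjusted p values besides the genes above were those of *Wnt7a* and *Wls*. *Wnt7a* was at 2.56 and 3.11 CPM in controls against 7.06 and 8.89 CPM in mutants (limma adjusted p = 0.201). *Wls*, the carrier that brings WNT proteins to the cell surface, was at 102 and 112 CPM in controls against 81.0 CPM in both mutants (limma adjusted p = 0.373). The summed CPM of the 10 listed WNT genes was 201 and 208 in controls against 180 and 194 in mutants.

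*Rspo3* (Entrez 72780, chr10:29452416-29535867, minus strand), an agonist that raises the response of cells to WNT ligands, showed the lowest log2 fold change of the 9 genes. It was at 12.8 and 22.2 CPM in controls, from 25 and 50 reads, against 5.81 and 9.83 CPM in mutants, from 14 and 21 reads. Both ca-*Acvr1(A11)* libraries lay below both control libraries, although replicates differed by 1.74-fold in controls and 1.69-fold in mutants. limma gave a log2 fold change of −1.06 (standard error 0.33, 95% interval −1.74 to −0.38), and its adjusted p of 0.185 missed the threshold. Omission of control replicate 1 (−1.43, adjusted p = 0.008) or of mutant replicate 2 (−1.39, adjusted p = 0.042) and the replicate block (adjusted p = 0.039) brought it past. Without control replicate 2 it was −0.68 (adjusted p = 0.767), and without mutant replicate 1 it was −0.72 (adjusted p = 0.640). Adjusted p ranged from 0.008 to 1.000 over the alternatives.

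The related *Rspo2* (Entrez 239405, chr15:43020794-43170826, minus strand) fell in ca-*Acvr1(A11)* NP tissues. It was at 32.2 and 51.9 CPM in controls against 4.98 and 13.6 CPM in mutants, or 42.1 ± 14.0 against 9.28 ± 6.07 CPM (SD, n = 2). Both mutant libraries lay below both controls, although replicates differed by 1.61-fold in controls and 2.72-fold in mutants. Its log2 fold change was −2.17 (standard error 0.32, limma adjusted p = 0.00025), and *Rspo2* was called in each of 15 alternatives. The fold change was −1.52 without mutant replicate 1 and −2.81 without mutant replicate 2. *Rspo1* was at 16.4 and 12.9 CPM in controls against 5.81 and 11.2 CPM in mutants (limma adjusted p = 0.436). Summed over the 3 listed R-spondin genes, the level was 61.3 and 87.0 CPM in controls against 16.6 and 34.6 CPM in mutants. *Rspo2* held 52.5% (exact 95% interval 43.2 to 61.7) and 59.7% (52.5 to 66.6) of R-spondin reads in control libraries, and 30.0% (16.6 to 46.5) and 39.2% (28.0 to 51.2) in ca-*Acvr1(A11)* libraries. *Rspo3* held 20.8% and 25.5% in controls against 35% and 28.4% in mutants.

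Among 9 genes for R-spondins and their receptors, 8 are listed, 7 were tested and 1 (*Rspo2*) was called. At an unadjusted p under 0.05 there were 2 higher and 4 lower. Of the receptors, *Lgr5* was at 8.18 and 16.4 CPM in controls against 5.40 and 5.15 CPM in mutants, from 11 to 37 reads (limma adjusted p = 0.295). Its log2 fold change of −1.01 ranged from −1.47 to −0.55 on omission of each library. The more abundant receptor gene *Lgr4* was at 86.4 and 83.5 CPM in controls against 121 and 98.3 CPM in mutants (limma adjusted p = 0.472). The median over this list was −0.77 on the log2 scale, with 4 tested genes below and 3 above 0.

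**Figure D2:**
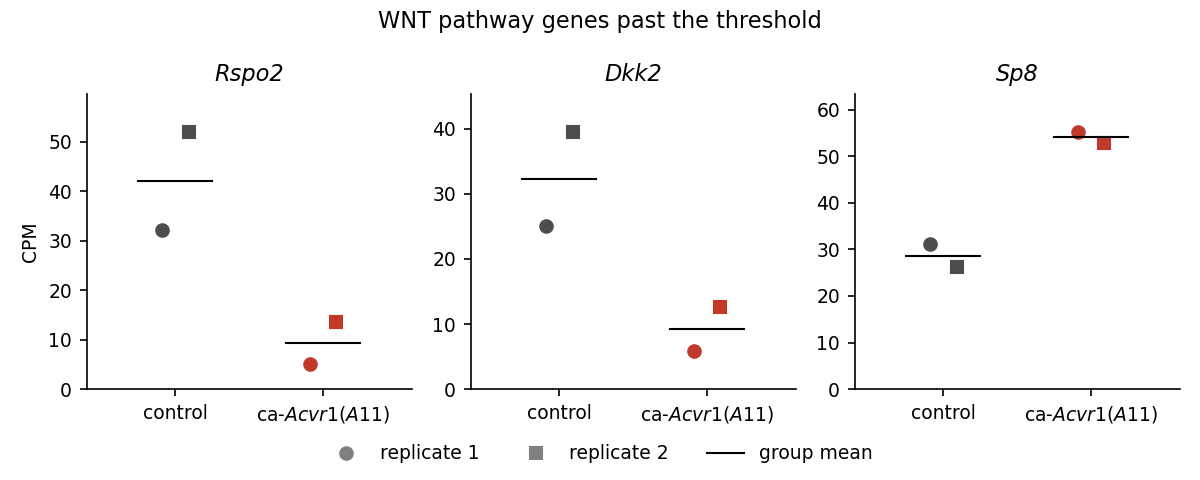
CPM (vertical axes, from 0) of the 3 WNT pathway genes with a limma adjusted p under 0.05, in 2 control and 2 ca-*Acvr1(A11)* libraries, with circles for replicate 1, squares for replicate 2 and lines for group means. *Rspo2* and *Dkk2* are lower and *Sp8* is higher in both ca-*Acvr1(A11)* libraries than in both controls.

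*Sfrp1* (Entrez 20377, chr8:23411502-23449632), a secreted protein that binds WNT ligands, was at 398 and 271 CPM in controls against 306 and 336 CPM in mutants. Both ca-*Acvr1(A11)* values lay between the controls, which differed by 1.47-fold, and each library had 610 to 778 reads. limma put the log2 fold change at −0.03 (standard error 0.15, 95% interval −0.35 to 0.28, adjusted p = 0.973). Its sign turned without control replicate 1 (0.24) and without mutant replicate 1 (0.03).

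*Sfrp2* (Entrez 20319, chr3:83766321-83774316), of the same family, was at 97.6 and 86.1 CPM in controls against 79.3 and 73.5 CPM in mutants. The groups do not overlap, and the gap between them is smaller than the gap between the controls. This gave a log2 fold change of −0.26 (standard error 0.16, 95% interval −0.60 to 0.07, limma adjusted p = 0.677). An antisense gene, *Gm26771*, overlaps the last exon of *Sfrp2*, and the strand setting of the counting is not given in the sources used here, so that reads of the pair cannot be told apart.

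*Dkk1* (Entrez 13380, chr19:30545863-30549665, minus strand), which blocks LRP co-receptors and is itself a WNT target, was at 5.11 and 9.77 CPM in controls against 4.57 and 5.62 CPM in mutants. The groups overlap, from 10 to 22 reads a library. Their log2 fold change was −0.42 (standard error 0.38, 95% interval −1.21 to 0.37, limma adjusted p = 0.815), and the interval leaves either sign open. It became −0.83 without control replicate 1 and −0.01 without control replicate 2.

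*Dkk2* (Entrez 56811, chr3:132085292-132180304), whose promoter is shown above, fell in ca-*Acvr1(A11)* NP tissues. It was at 25.04 and 39.5 CPM in controls against 5.81 and 12.6 CPM in mutants, or 32.3 ± 10.2 against 9.22 ± 4.82 CPM (SD, n = 2). Fitted with limma, the log2 fold change was −1.75 (standard error 0.31, adjusted p = 0.002), and *Dkk2* was called in each of 15 alternatives. It was −1.25 without mutant replicate 1 and −2.25 without mutant replicate 2. Summed over 4 DKK genes, the level was 42.9 and 64.8 CPM in controls against 18.3 and 27.6 CPM in mutants. *Dkk2* held 58.3% (exact 95% interval 47.1 to 69.0) and 61.0% (52.5 to 68.9) of DKK reads in control libraries and 31.8% (18.6 to 47.6) and 45.8% (32.7 to 59.2) in ca-*Acvr1(A11)* libraries.

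Among 20 secreted and surface WNT inhibitors, 18 are listed, 17 were tested and 1 (*Dkk2*) was called, with 1 higher and 4 lower at an unadjusted p under 0.05 and a median log2 fold change of −0.05. *Frzb*, a further SFRP-type inhibitor, was at 53.1 and 63.0 CPM in controls against 29.5 and 43.5 CPM in mutants (limma adjusted p = 0.164). It was called in 3 of 15 alternatives, which are the replicate block and the omission of control replicate 1 or of mutant replicate 2 (lowest adjusted p = 0.023). *Shisa3* was at 1.53 and 6.22 CPM in controls against 10.8 and 6.55 CPM in mutants (limma adjusted p = 0.348). Its log2 fold change of 1.14 ranged from 0.39 to 1.90 on omission of each library.

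None of the 3 chosen target genes (*Axin2*, *Lef1* and *Sp5*) gave a difference past the threshold. *Axin2* (Entrez 12006, chr11:108920349-108950783), a feedback inhibitor in the destruction complex and a widely used readout of β-catenin activity, was at 32.2 and 41.3 CPM in controls against 34.9 and 39.3 CPM in mutants. Both ca-*Acvr1(A11)* values lay between the controls, from 63 to 93 reads a library. *Axin2* had a log2 fold change of 0.02 (standard error 0.21, limma adjusted p = 0.988), and its sign turned with TMM and with RLE scaling. The 95% interval of −0.40 to 0.45 bounds a difference in either direction, which does not show that the groups were equal.

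*Lef1* (Entrez 16842, chr3:131110471-131224356), a TCF/LEF factor and target, was at 28.1 and 44.4 CPM in controls against 30.3 and 29.9 CPM in mutants. The ca-*Acvr1(A11)* libraries were close to control replicate 1, and control replicate 2 stood above the other libraries. The log2 fold change of −0.22 (standard error 0.23, limma adjusted p = 0.840) became 0.10 without control replicate 2.

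*Sp5* (Entrez 64406, chr2:70474923-70477729), a zinc finger factor gene whose promoter with the TCF/LEF letters is shown above, was at 2.56 and 6.22 CPM in controls against 6.23 and 6.08 CPM in mutants. Control replicate 1, with 5 reads (exact Poisson 95% interval 1.62 to 11.7 reads), was below the other libraries, which had 13 to 15 reads. The log2 fold change of 0.50 (standard error 0.41, limma adjusted p = 0.780) became −0.01 without that library.

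*Sp8* (Entrez 320145, chr12:118846329-118852576), a zinc finger factor gene of facial ectoderm and neural tissue that is listed with the targets, rose in ca-*Acvr1(A11)* NP tissues. It was at 31.2 and 26.2 CPM in controls against 55.2 and 52.9 CPM in mutants. The gap between the groups was wider than either replicate difference (log2 fold change 0.90, standard error 0.20, limma adjusted p = 0.019). The call was lost with DESeq2 (adjusted p = 0.415), on omission of control replicate 2 (0.073), mutant replicate 1 (0.131) or mutant replicate 2 (0.076). Adjusted p ranged from 0.001 to 0.415 over 15 alternatives, each with a higher level in ca-*Acvr1(A11)* libraries.

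Of 20 canonical WNT target genes, 18 were tested and 1 (*Sp8*) was called, with 3 higher and 2 lower at an unadjusted p under 0.05 and a median log2 fold change of 0.06. *Lgr5*, also on this list, is given above with the receptors. *Rnf43* was at 1.53 and 0.44 CPM in controls against 3.32 and 2.81 CPM in mutants, from 1 to 8 reads (limma adjusted p = 0.483).

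**Figure D3:**
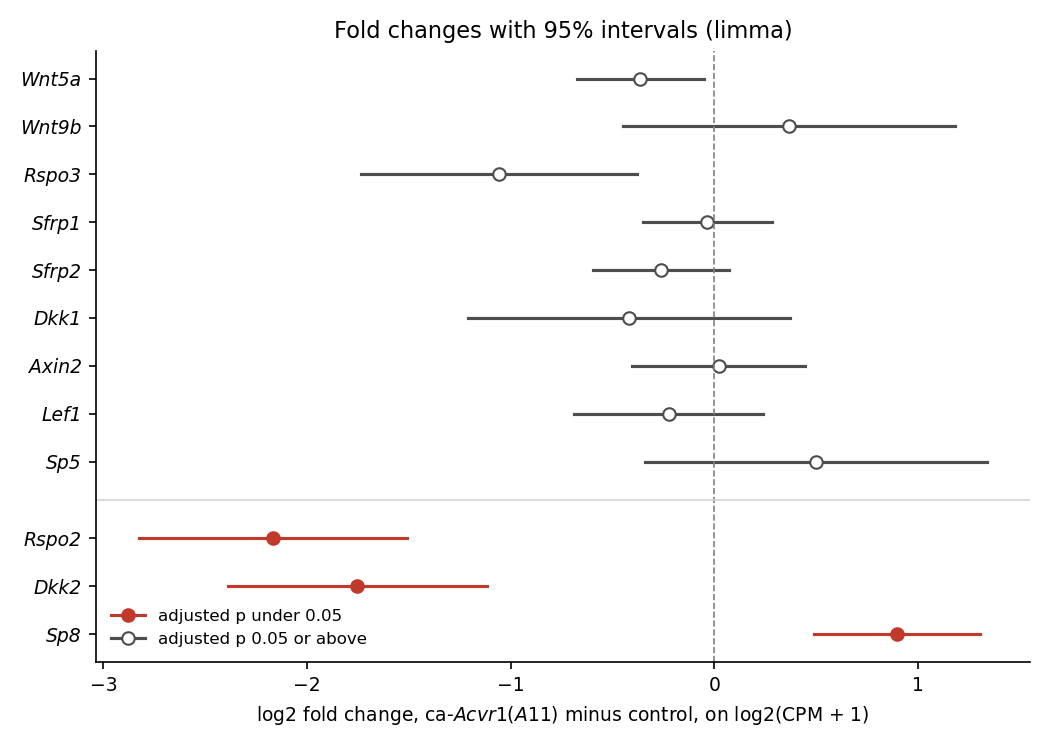
Log2 fold changes of ca-*Acvr1(A11)* against control libraries on the log2(CPM + 1) scale (horizontal axis) with 95% intervals from limma, for the 9 listed genes and, under the line, 3 further WNT pathway genes with an adjusted p under 0.05 (filled). Intervals of *Wnt5a* and *Rspo3* exclude 0 before adjustment for the number of genes tested, and no gene of the 9 passed it.

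Over all 8 lists of WNT pathway genes, 105 of 120 genes are listed, 102 were tested, 1 was called higher and 2 were called lower, which are *Sp8*, *Rspo2* and *Dkk2*. Among all genes tested, limma called 0.305% higher and 0.594% lower. By edgeR 5 of the 102 were called, by limma-voom 4 and by DESeq2 2, beside 149, 132 and 39 of all 12462 genes tested. Before adjustment, 9 had a p under 0.05 in the higher and 17 in the lower direction. Among all 12462 genes tested, these counts were 676 and 514, together 9.55% of the genes. There were 47 tested genes above and 55 below 0, and the median log2 fold change was −0.04. Without control replicate 1 the calls numbered 14.

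The 16 receptors and co-receptors were all tested and 0 were called by limma, with 6 at an unadjusted p under 0.05 and a median log2 fold change of −0.18. edgeR called 2, limma-voom 1 and DESeq2 0 of them. *Ptk7*, a co-receptor of planar polarity, was at 48.5 and 62.2 CPM in controls against 38.6 and 21.99 CPM in mutants (limma adjusted p = 0.059). *Fzd7* was at 36.8 and 43.9 CPM in controls against 23.7 and 21.5 CPM in mutants (limma adjusted p = 0.083). Both were called with TMM scaling (adjusted p = 0.025 and 0.049), with edgeR (0.037 and 0.044), with the replicate block (0.001 and 0.019) and without control replicate 1 (0.001 and 0.021). In all, *Ptk7* was called in 8 and *Fzd7* in 4 of 15 alternatives. Over all 15, adjusted p ranged from 0.00054 to 0.792 for *Ptk7* and from 0.019 to 0.943 for *Fzd7*. Summed over 10 FZD genes, the level was 694 and 753 CPM in controls against 722 and 634 CPM in mutants, with overlapping groups.

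Inside the cell, 0 of 15 genes of the β-catenin destruction complex and Dishevelled were called by limma, edgeR, DESeq2 or limma-voom, and 0 had an unadjusted p under 0.05. *Btrc* was at 26.6 and 25.7 CPM in controls against 14.5 and 26.7 CPM in mutants (limma adjusted p = 0.706). *Apc2* was at 3.07 and 1.33 CPM in controls against 4.98 and 2.81 CPM in mutants (limma adjusted p = 0.740). The median log2 fold change of this list was −0.02.

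Of TCF/LEF factors and partners, 11 of 12 were tested and 0 were called by any of these tools, with 1 at an unadjusted p under 0.05 and a median of −0.07. That gene was *Tle4*, a co-repressor, at 143 and 133 CPM in controls against 160 and 192 CPM in mutants (limma adjusted p = 0.436). *Tcf7* was at 1.02 and 0 CPM in controls against 1.66 and 1.40 CPM in mutants (limma adjusted p = 0.709). The 4 TCF/LEF genes summed to 431 and 384 CPM in controls against 399 and 396 CPM in mutants. *Lef1* held 6.52% and 11.6% of their reads in controls against 7.60% and 7.56% in mutants.

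Of planar polarity and other β-catenin independent genes, 14 of 15 were tested and 0 were called by any of these tools, with 2 at an unadjusted p under 0.05 and a median of −0.01. These were *Daam2*, at 9.71 and 15.1 CPM in controls against 6.64 and 5.62 CPM in mutants, and *Prickle2*, at 11.8 and 12.4 CPM in controls against 5.40 and 7.49 CPM in mutants. limma's adjusted p was 0.346 and 0.381.

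**Figure D4:**
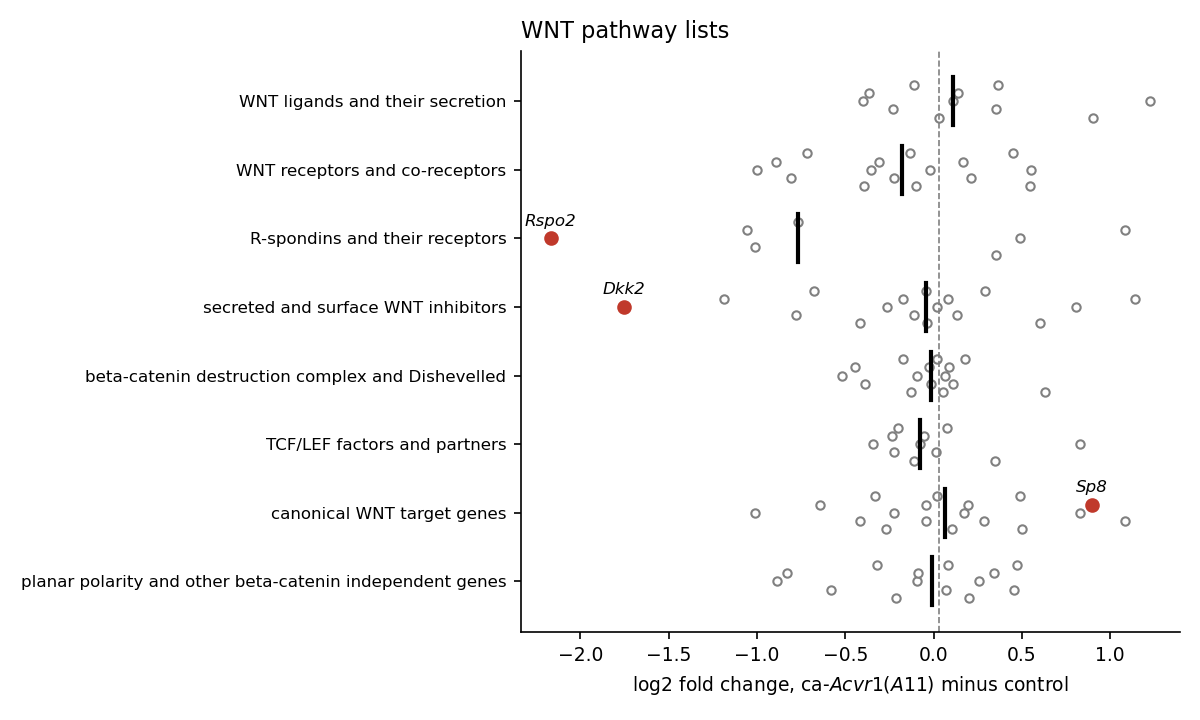
Log2 fold changes of ca-*Acvr1(A11)* against control libraries (horizontal axis) for the tested genes of 8 WNT pathway lists, with a point per gene, filled where limma's adjusted p was under 0.05, a bar at each list's median and a dashed line at the median of all genes tested (0.03). *Rspo2* and *Dkk2* lie farthest to the left, and a gene on 2 lists is drawn in both.

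The genes whose values over the 4 libraries most resembled those of *Rspo3*, the gene with the smallest p of the 9, were *Zcchc24*, *Slc25a21*, *Pth1r*, *Foxf1* and *Vcam1*. Likeness was measured as the root-mean-square distance between log2(CPM + 1) values, each gene centred on its mean, among 6563 genes with a mean of at least 20 CPM. Distances of these 5 ran from 0.041 to 0.11, against a median of 0.66 over all genes compared. *Zcchc24* was at 37.8 and 61.7 CPM in controls against 18.3 and 27.6 CPM in mutants. *Zcchc24* (adjusted p = 0.021) and *Vcam1* (adjusted p = 0.020) were called lower by limma, and *Pth1r*, *Foxf1* and *Slc25a21* had adjusted p of 0.069, 0.089 and 0.152.

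Markers of several cell types in NP tissues moved with the groups. Of 12 mesenchyme markers, 11 were called lower in ca-*Acvr1(A11)* libraries (11 by edgeR and limma-voom, 6 by DESeq2). Their summed level was 1921 and 2383 CPM in controls against 1034 and 1075 CPM in mutants, with *Col1a2* most abundant at 540 and 617 against 246 and 240 CPM. The median log2 fold change of the list was −1.09, beside −1.06 for *Rspo3*, −2.17 for *Rspo2*, −1.75 for *Dkk2* and −0.36 for *Wnt5a*. *Pdgfra*, one of these markers, has values that are not whole reads, and without it the sums were 1836 and 2269 against 1021 and 1057 CPM.

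Of 14 epithelial markers, 3 (*Epcam*, *Cdh1* and *Perp*) were called higher, and the list summed to 323 and 300 CPM in controls against 495 and 455 CPM in mutants. *Cdh1* was its most abundant gene, at 77.2 and 59.5 against 121 and 114 CPM. Of 12 neural and olfactory markers, 1 (*Six3*) was called higher, DESeq2 called 0 of the epithelial and 0 of the neural markers, and the neural list summed to 2011 and 1747 against 2525 and 2591 CPM, with *Sox2* most abundant at 455 and 429 against 616 and 633 CPM. The log2 fold change of *Sp8* stands beside these lists, whose medians were 0.51 and 0.41. The part of these cell types in the values of *Rspo2*, *Rspo3*, *Dkk2*, *Wnt5a* and *Sp8* was not tested.

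Of 8 macrophage markers, 1 (*Mrc1*, also the most abundant) was called higher, a call lost with DESeq2 and limma-voom and kept in 8 of 14 alternatives, and the sum was 29.1 and 32.4 CPM in controls against 48.6 and 72.1 CPM in mutants, with *C1qa* at 0 in control replicate 1. Erythroid markers summed to 7028 and 8483 against 6710 and 7213 CPM, led by *Hbb-y*, and endothelial markers to 177 and 187 against 183 and 172 CPM, led by *Kdr*. Glial and neural crest markers summed to 89.4 and 135 against 95.1 and 130 CPM, mostly from *Fabp7* (69.0 and 113 against 83.4 and 122 CPM). The median log2 fold change of this list was −0.82, with 3 of 4 tested genes below 0 and 1 (*Fabp7*) above. Muscle markers summed to 11.2 and 11.1 against 12.5 and 16.4 CPM, led by *Tnnt1*. Of these 4 lists, 0 genes were called by limma, edgeR, DESeq2 or limma-voom, and 2 (*Sox10* and *Foxd3*, both lower) had an unadjusted p under 0.05. *Erbb3*, *Hba-a1*, *Hba-a2*, *Hbb-bt*, *Myod1* and *Myog* have no line in the table used here.

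**Figure D5:**
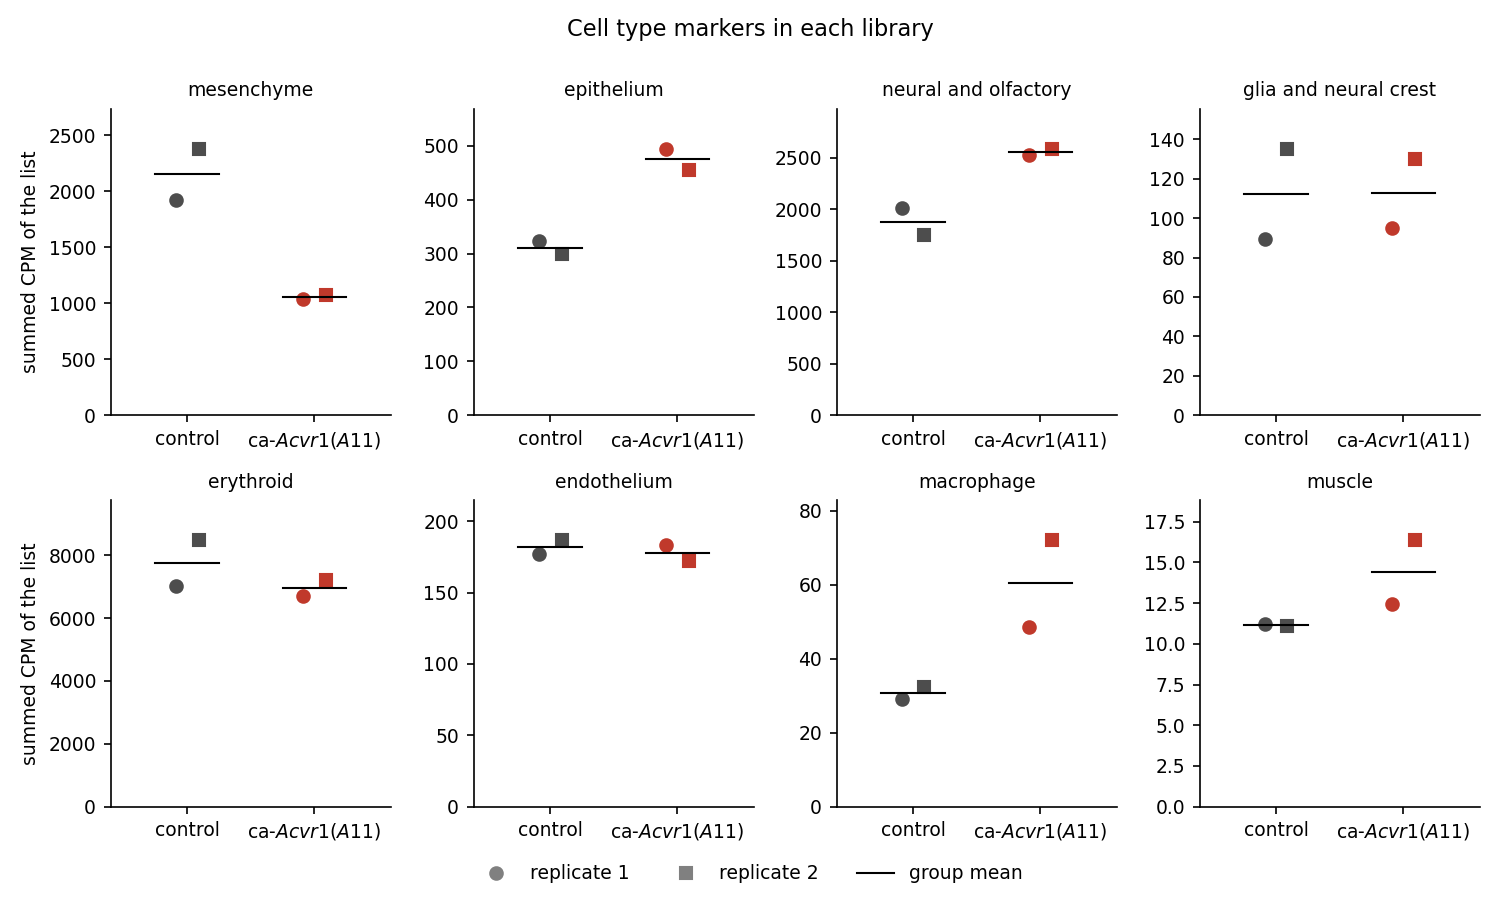
Summed CPM of 8 cell type marker lists (vertical axes, from 0) in 2 control and 2 ca-*Acvr1(A11)* libraries, with circles for replicate 1, squares for replicate 2 and lines for group means. Mesenchyme sums are lower and epithelial, neural and macrophage sums higher in both ca-*Acvr1(A11)* libraries than in both controls.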

How the data were processed

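RNA of E11.5 NP tissues was extracted with TRIzol, and 4 libraries were made with the QuantSeq 3′ kit. The authors deposited CPM values for 13577 genes, and the table also has 33470 empty lines. The submitters' processing notes name STAR, featureCounts 1.6.4, DESeq2 and mm10, with no role or order. From the smallest step between CPM values, whole reads were recovered for 99.92% of 54308 values (tolerance 0.02 reads), and 43 values of 22 genes were not whole. None of these belongs to a WNT gene named here.

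Genes with a mean above 1 CPM (12462) were tested with limma 3.58.1 (lmFit and eBayes with trend) on log2(CPM + 1), two-sided, with Benjamini-Hochberg adjustment over all genes at 0.05. A fold change on this scale understates the change of low genes. edgeR 4.0.16 (quasi-likelihood), DESeq2 1.42.0 and limma-voom were run on recovered reads as alternatives, in R 4.3.3. Other alternatives were pseudocounts of 0.1 and 5, other filters, TMM and RLE scaling, omission of the 22 genes, the replicate number as a block, and omission of each library. Scripts were tested on simulated data. Coordinates are from GENCODE M21 (GRCm38, the build named mm10), and promoter sequences from RefSeq (GRCm38.p6). Tables and plots were made with Python 3.11.15, pandas 2.3.3, scipy 1.17.1 and matplotlib 3.10.9.

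The members and gene lists were chosen with earlier results of these data known. Named were the 10 genes, each pathway gene called, the 2 further tested genes per pathway list with the smallest unadjusted p, the 5 genes most like the gene with the smallest p of the 10, and *Acvr1*. Of each marker list, the sum, the most abundant gene and the markers at 0 or without a line were given. Marker genes called, *Lgr4*, and the R-spondin, DKK, WNT, FZD and TCF/LEF family sums, were chosen after their values were seen.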

Additional observations from a re-analysis of the deposited data

How the results depend on the processing

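None of the 9 genes crossed the threshold under the alternatives other than *Rspo3*, and over 134 fits of the 9 genes 119 kept direction and side of the threshold, 12 turned in sign and 3 brought *Rspo3* past it. *Sp5* could not be fitted with at least 10 reads in every library. Whether the same replicate number in both groups marks paired samples is not given in the sources used here. Across genes, the replicate differences of the groups correlated with r = 0.067, which cannot exclude a pairing. With the replicate block, 97 genes were called higher, 132 lower and 7 of the WNT pathway lists, and *Rspo3* was called (log2 fold change −1.06, adjusted p = 0.039, range over alternatives 0.008 to 1.000). DESeq2 called 8 genes higher and 31 lower. TMM scaling and edgeR each called 5 WNT pathway genes, with *Ptk7* and *Fzd7* added. The log2 fold change of *Axin2* was −0.0095 with TMM scaling, −0.0044 with RLE scaling, −0.026 with edgeR, −0.018 with DESeq2 and −0.021 with limma-voom. The cause of these differences was not tested. On omission of each library, the lone library of a group was assumed to vary like the other group. Genes called higher then ranged from 32 to 241, genes called lower from 56 to 221 and WNT pathway genes from 3 to 14, each highest without control replicate 1. Log2 fold changes ranged from −1.43 to −0.68 for *Rspo3*, −0.15 to 0.20 for *Axin2*, −0.54 to 0.10 for *Lef1*, −0.012 to 1.01 for *Sp5*, −0.31 to 0.24 for *Sfrp1*, −0.25 to 0.99 for *Wnt9b*, −0.83 to −0.01 for *Dkk1*, −0.35 to −0.17 for *Sfrp2* and −0.46 to −0.27 for *Wnt5a*. *Sp5*, *Dkk1* and *Wnt9b* had the fewest reads of the 9 genes, with 47, 55 and 61 over the 4 libraries, and what part depth and replicate spread have in their wide intervals was not tested.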
